A study of Caenorhabditis elegans with 2 samples.

Results

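The hypoxia and hydrogen sulfide response of *Caenorhabditis elegans* was examined through 7 genes, hif-1, egl-9, vhl-1, rhy-1, cysl-1, cysl-2 and phy-2. They were chosen by symbol, and all 7 had at least 1 sequence ID with reads among the 8730 genes listed in 1 or both of 2 mRNA sequencing libraries. 1 library came from the N2 Bristol wild type and 1 from KU25, a strain with the pmk-1(km25) deletion, which removes function of the p38 mitogen-activated protein kinase PMK-1. Both were made from whole-worm lysates of young adults grown at 20 °C on *Escherichia coli* OP50 and then kept for 5 h at 35 °C in sealed plastic bags, so both groups share the heat and the sealed bag. The study was made to learn what PMK-1 contributes to the response to heat. Unheated worms were not analysed here, and pmk-1 itself had no listed ID, so the deletion was not checked in these data.

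HIF-1 is the worm's hypoxia-inducible transcription factor. When oxygen is present the prolyl hydroxylase EGL-9 modifies HIF-1, and VHL-1, the substrate receptor of a cullin ubiquitin ligase, then marks it for degradation. Hydrogen sulfide acts on the same switch through CYSL-1, a cysteine synthase-like protein that binds and inhibits EGL-9, while the membrane protein RHY-1 acts upstream to restrain this route. Among the genes that HIF-1 activates are rhy-1 and egl-9 themselves, cysl-2, which encodes an enzyme that assimilates sulfide and cyanide, and phy-2, a collagen prolyl hydroxylase gene.

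Scaled to library totals, cysl-1 and phy-2 were more than 2-fold higher in the mutant, while rhy-1 and cysl-2 were a little lower, with intervals that reached a ratio of 1. Neither difference of more than 2-fold held when markers of body tissues set the scale, where phy-2 stood close to equal levels, at a log2 ratio of -0.055. The reads of hif-1, egl-9 and vhl-1 were too few to show a difference of that size. Values are unique reads and CPM, the reads scaled to 1 M listed reads of the library. The wild-type library held 5.78 M such reads and the mutant library 5.23 M. Ratios divide the CPM of the mutant by that of the wild type and stand with exact 95% intervals (conditional binomial, Clopper-Pearson), and intervals of single levels are exact Poisson intervals. These intervals cover counting error only, and they treat each read as a molecule of its own, which libraries without molecular identifiers do not assure. With 1 library per genotype there is no replicate error and no test, so the values compare 2 libraries and not 2 genotypes.

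**Figure D1:**
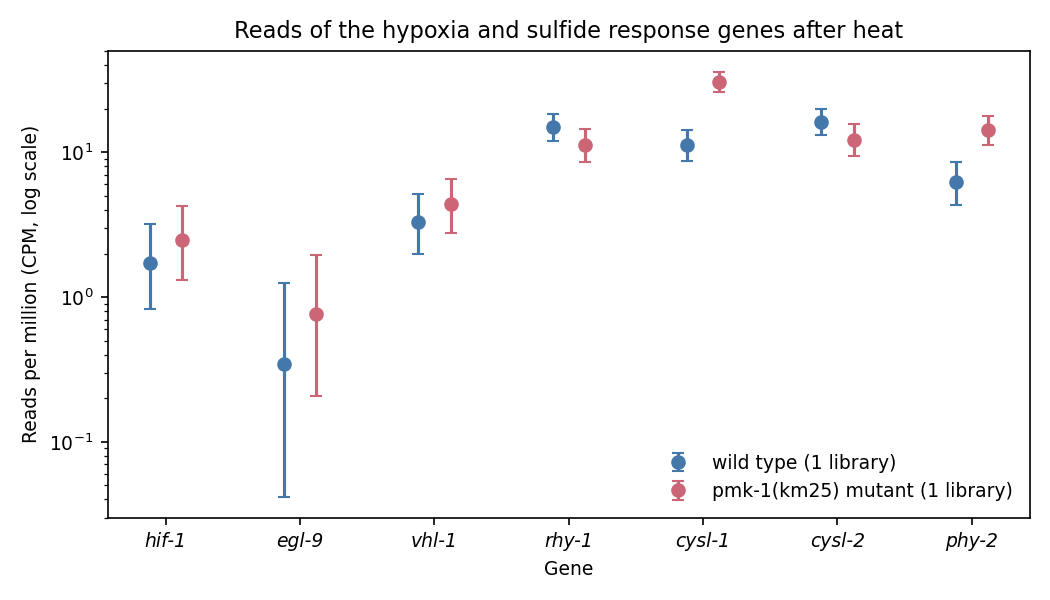
CPM (log axis) of each of the 7 genes in the wild-type library and in the mutant library, with exact 95% Poisson intervals of the count as bars. The intervals of the libraries do not overlap for cysl-1 and phy-2 and overlap for the other 5 genes. How many of all genes have intervals that do not overlap was not computed. Ratio intervals without 1 were common among the 5197 genes that reached 50 reads, wholly above 1 for 30.2% and wholly below 1 for 53.6%.

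The sensor side of the switch was described first. cysl-1 (C17G1.7, chromosome X) had 65 reads in the wild type, or 11.2 CPM (8.67 to 14.3), and 161 reads in the mutant, or 30.8 CPM (26.2 to 35.9). The mutant library was the higher one, and the intervals did not overlap, though the share of all genes without overlap was not computed. The CPM ratio was 2.74 (2.04 to 3.71), with the lower end of the interval itself above 2, and the reads covered 90.9% and 98.4% of the listed coding sequence. rhy-1 (W07A12.7, chromosome II), which acts upstream of cysl-1, had 87 reads in the wild type, or 15.04 CPM (12.05 to 18.6), and 59 in the mutant, or 11.3 CPM (8.59 to 14.6). Here the wild-type library was the higher one, with intervals that overlapped and a CPM ratio of 0.75 (0.53 to 1.06).

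The genes of the transcription factor and of its degradation had few reads. vhl-1 (F08G12.4, chromosome X) had 19 reads in the wild type, or 3.28 CPM (1.98 to 5.13), and 23 in the mutant, or 4.40 CPM (2.79 to 6.60), a ratio of 1.34 (0.697 to 2.60). hif-1 (F38A6.3, chromosome V) had 10 reads against 13, or 1.73 CPM (0.829 to 3.18) against 2.49 (1.32 to 4.25), a ratio of 1.44 (0.582 to 3.66). egl-9 (F22E12.4, chromosome V) had 2 reads against 4, or 0.346 CPM (0.0419 to 1.25) against 0.765 (0.208 to 1.96), a ratio of 2.21 (0.317 to 24.5). The intervals of these 3 ratios held both 1 and 2, so neither equality nor a 2-fold difference could be told from these read numbers.

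For hif-1 and egl-9 the small numbers come with a limit of how reads were placed. The annotation lists 6 coding isoforms of hif-1 and 5 of egl-9, while the other 5 genes have 1 each. A read that lies in sequence shared by isoforms has more than 1 possible ID. Of hif-1, reads were listed for isoforms b and d only, and of egl-9 for isoforms c and d only. The reads of hif-1 d covered 8.41% of its coding sequence (wild type) and 12.9% (mutant), and 14.99% of that sequence lies in 49-base windows, the length of a read, that no other annotated isoform holds. The reads of egl-9 c covered 5.08% and 3.51%, against 10.8% in such windows, and those of egl-9 d covered 2.47% in the mutant alone, against 4.56%. hif-1 b held no such window among all annotated isoforms. With the isoforms lettered a to d alone, a choice made after the values were seen, it held 4.72%, against 3.92% and 2.77% covered. The 4 listed IDs of hif-1 and egl-9 had at most 11 reads in a library, so their coverage could only be low. Where an ID had more than 1 read in a library, its 49-base reads overlapped. For hif-1 b, 5 wild-type reads covered 85 bases and 2 mutant reads covered 60. For hif-1 d, 5 wild-type reads covered 168 bases and 11 mutant reads covered 258. For egl-9 c, 2 wild-type reads covered 71 bases and 1 mutant read covered 49, and 3 mutant reads of egl-9 d covered 52. Whether reads were limited to such windows was not tested. In vhl-1, rhy-1, cysl-1, cysl-2 and phy-2 all of the coding sequence lies in such windows, and reads covered from 59.5% (phy-2, wild type) to 98.4% (cysl-1, mutant).

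**Figure D2:**
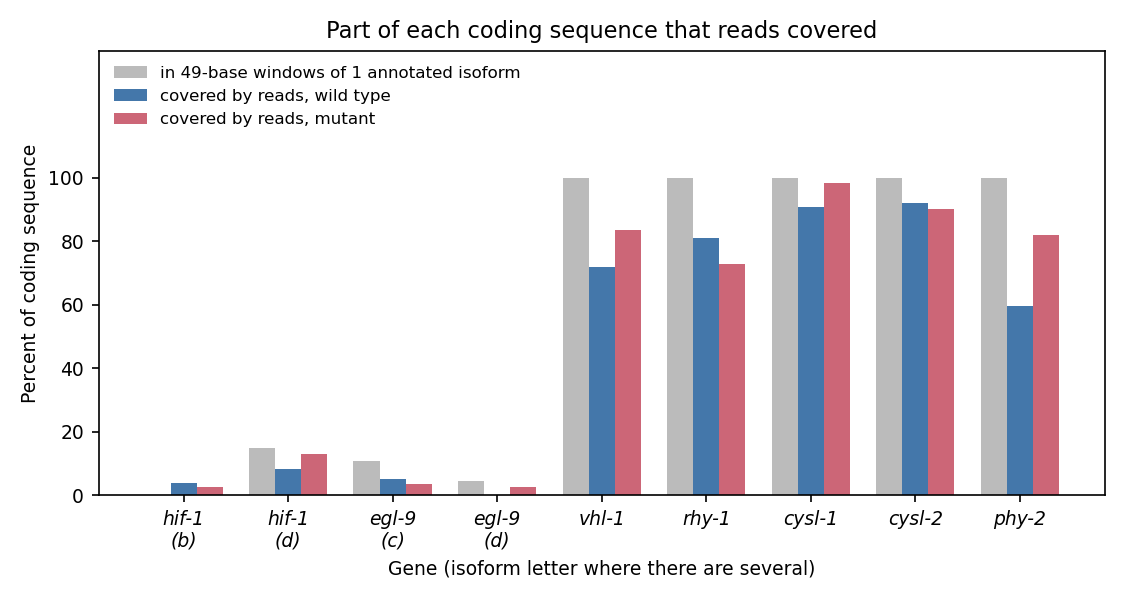
Percent of each listed coding sequence that reads covered in the wild-type and the mutant library, beside the percent that lies in 49-base windows found in 1 annotated isoform alone. Coverage of the 4 listed isoforms of hif-1 and egl-9, with at most 11 reads in a library, stays below 15%. The 5 genes with 1 isoform, with at least 19 reads, reach at least 59.5%. The parts of read numbers and of read placement in this contrast were not tested.

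Across the libraries, coverage was also compared where reads were not so few. Among IDs with at least 50 reads, the median coverage was 98.7% (wild type, 3246 IDs) and 98.2% (mutant, 3619 IDs) for genes with 1 annotated coding sequence. For genes with 2 or more it was 55.5% (669 IDs) and 66.0% (634 IDs). The level of hif-1 and egl-9 per whole length therefore counts much sequence that holds no window of 1 isoform. The isoforms of hif-1 had too few reads to compare, with 5 against 2 reads for b and 5 against 11 for d.

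The enzyme genes downstream of HIF-1 differed from each other. cysl-2 (K10H10.2, chromosome II) had 94 reads in the wild type, or 16.3 CPM (13.1 to 19.9), and 64 in the mutant, or 12.2 CPM (9.42 to 15.6). The wild-type library was the higher one, the intervals overlapped, and the CPM ratio was 0.753 (0.539 to 1.05). phy-2 (F35G2.4, chromosome IV), which encodes a catalytic subunit of the collagen prolyl 4-hydroxylase of the cuticle, had 36 reads, or 6.22 CPM (4.36 to 8.62), against 75, or 14.3 CPM (11.3 to 17.97). The mutant library was the higher one without overlap, for which no share of all genes was computed. The CPM ratio was 2.30 (1.53 to 3.53).

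Of the 7 genes, 4 reached 50 reads in a library, and phy-2 did so through the mutant library alone. Of these 4, cysl-1 and phy-2 were at least 2-fold higher with an interval that excluded 1, and none was at least 2-fold lower. Of all 5197 genes that reached this level, 17.6% were higher by this rule and 1.75% lower. The interval lay wholly above 1 for 30.2% of them and wholly below 1 for 53.6%. The median log2 ratio of all these genes was -0.33. The log2 ratio of cysl-1 was 1.45 and that of phy-2 was 1.19, which lie at percentiles 90.2 and 85.9 of all genes. Those of cysl-2 and rhy-1 were both -0.41, at percentiles 44.5 and 44.1, so both lie within 0.08 of the median of all genes. Over the 4 genes the median log2 ratio was 0.39, between these 2 pairs.

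Because cysl-1 and cysl-2 encode related enzymes with different parts in the pathway, their balance within each library was also compared, which does not depend on how the libraries are scaled. Per length, in RPKM, cysl-1 stood at 0.683 times the level of cysl-2 (wild type) and at 2.49 times (mutant). The ratio between them thus differed 3.62-fold between the libraries (conditional odds ratio, exact interval 2.32 to 5.72). Of the 6 pairs among the 4 genes with enough reads, 4 had an interval that excluded 1. These were the pairs that set cysl-1 or phy-2 against rhy-1 or cysl-2, so they restate the ratios of the 4 genes and are no separate result. The share of such pairs among all genes was not computed. The ratio of rhy-1 to cysl-2 differed 0.996-fold (0.613 to 1.62), and that of cysl-1 to phy-2 differed 1.19-fold (0.703 to 1.99).

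The order of levels per length differed at the top. In the wild type cysl-2 was first at 16.03 RPKM, followed by cysl-1 at 10.95, rhy-1 at 9.97, vhl-1 at 6.26 and phy-2 at 3.84. Only the step from cysl-2 to cysl-1, a level ratio of 1.46 (1.06 to 2.04), exceeded counting error among these neighbours. In the mutant cysl-1 was first at 30.0 RPKM, and cysl-2 at 12.1, phy-2 at 8.85, vhl-1 at 8.38 and rhy-1 at 7.48 followed, with 1 step beyond counting error, that from cysl-1 to cysl-2 at 2.49 (1.85 to 3.38). hif-1 at 0.832 and 1.23 RPKM and egl-9 at 0.247 and 0.409 RPKM were last in both libraries, on whole lengths of which reads covered at most 12.9%. Among all listed genes, cysl-2 stood at percentile 50 of the RPKM levels (wild type) and 42.4 (mutant), and cysl-1 at 45.8 and 56.7. rhy-1 stood at 44.3 and 35.2, vhl-1 at 38.9 and 37.2 and phy-2 at 32.6 and 37.9, with hif-1 at 14.2 and 14.3 and egl-9 at 3.55 and 5.52.

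The partners of HIF-1 and the ubiquitin ligase that degrades it had lower ratios than cysl-1 and phy-2. All 6 genes of this list had reads and 5 reached 50 reads, with a median log2 ratio of -0.52, which is -0.19 from that of all genes. None of these 5 differed by 2-fold with library totals, where 17.6% of all 5197 genes were higher and 1.75% lower. With the body tissue markers at a median of 0 the list median was -1.77, and all 5 of these genes were at least 2-fold lower. On that scale 69.7% of all 5197 genes were lower by the same rule, and the median of all genes was -1.58. elb-1, an elongin B gene, had 415 reads against 225, a CPM ratio of 0.600 (0.508 to 0.707). swan-1, which encodes a WD-repeat protein that acts with EGL-9, had 140 against 80, a ratio of 0.632 (0.474 to 0.838). The RING subunit gene rbx-1 (493 against 310 reads) and the cullin gene cul-2 (161 against 102) had ratios of 0.695 (0.601 to 0.803) and 0.701 (0.541 to 0.903). The elongin C gene elc-1 had 172 against 149 reads and a ratio of 0.958 (0.764 to 1.20). aha-1, the partner with which HIF-1 binds DNA, had 3 reads against 1.

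**Figure D3:**
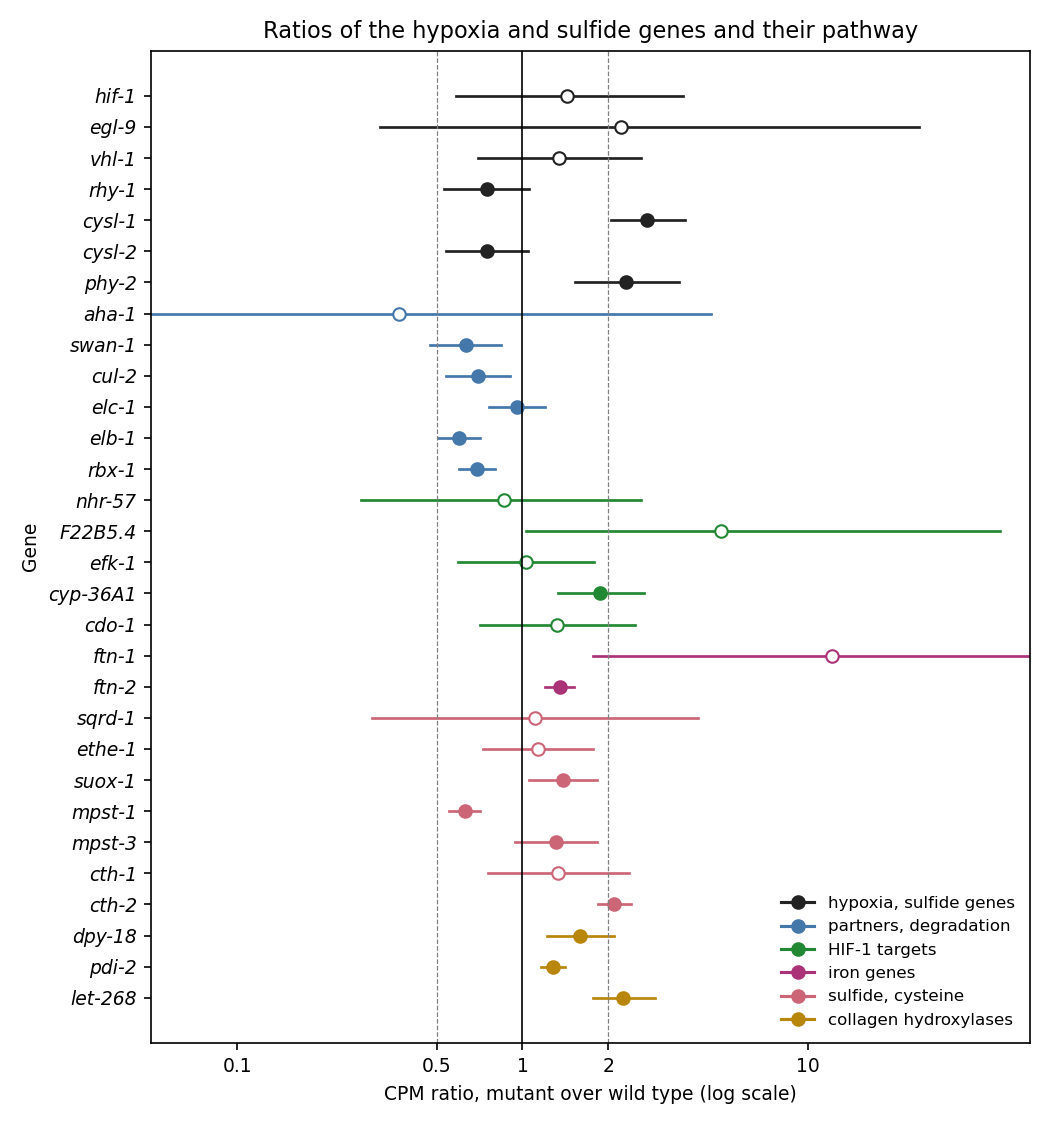
CPM ratio of mutant over wild type (log axis, scaled to library totals) with exact 95% intervals for the 7 hypoxia and sulfide genes and the listed genes of 5 pathway lists. Filled points have at least 50 reads in a library and open points fewer, dashed lines mark 2-fold, and intervals that leave the axis are cut at its ends. The partners and degradation genes lie at or below 1, and cysl-1, phy-2, cth-2 and let-268 lie above 2 among the filled points.

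Other genes that HIF-1 is known to activate gave little to read. Of 7 on the list, 5 had reads and 1 reached 50 reads. That gene, cyp-36A1, a cytochrome P450 gene that acts downstream of EGL-9, had 56 reads against 95 and a CPM ratio of 1.88 (1.33 to 2.66), and its log2 ratio of 0.90 turned to -0.35 with the body tissue markers at a median of 0. nhr-57, a nuclear hormone receptor gene much used as a HIF-1 reporter, had 9 reads against 7, a ratio of 0.860 (0.272 to 2.60). The kinase gene efk-1 had 30 against 28 reads and the cysteine dioxygenase gene cdo-1 had 21 against 25. F22B5.4 had 2 against 9, and oac-54 and fmo-2 were not listed. Of the iron genes that HIF-1 represses, the ferritin gene ftn-2 had 504 against 615 reads, a ratio of 1.35 (1.20 to 1.52), whose log2 value of 0.43 turned to -0.82 in the same way. The other ferritin gene, ftn-1, had 1 against 11 reads, a ratio of 12.2 (1.77 to 524), and smf-3 was not listed.

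Genes of sulfide and cysteine metabolism lay in both directions. Of 17 symbols 7 had reads and 4 reached 50 reads, with a median log2 ratio of 0.43, which turned to -0.82 with the body tissue markers at a median of 0. cth-2, a cystathionine gamma-lyase gene, had 329 reads against 624, a ratio of 2.10 (1.83 to 2.40). It was the 1 gene of the list beyond 2-fold, beside 17.6% of all 5197 genes that were at least 2-fold higher. suox-1, the sulfite oxidase gene, had 98 against 123 reads, a ratio of 1.39 (1.06 to 1.83). The mercaptopyruvate sulfurtransferase genes mpst-1 and mpst-3 had ratios of 0.628 (0.554 to 0.712, 690 against 392 reads) and 1.31 (0.943 to 1.82, 71 against 84 reads). Below that level were sqrd-1, the sulfide oxidoreductase gene that sulfide induces through HIF-1, with 6 reads in each library, the persulfide dioxygenase gene ethe-1 with 43 against 44, and cth-1 with 25 against 30. cysl-3, cysl-4, cbs-1 and cbs-2 were among the 10 symbols that were not listed.

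The collagen-modifying enzymes that act beside PHY-2 were higher in the mutant with library totals (median log2 ratio 0.67), and turned lower with the body tissue markers at a median of 0 (-0.58). dpy-18, the gene of the other catalytic prolyl 4-hydroxylase subunit, had 96 reads against 138, a CPM ratio of 1.59 (1.22 to 2.08). pdi-2, the gene of the protein disulfide isomerase subunit they share, had 751 against 870, a ratio of 1.28 (1.16 to 1.41). let-268, a lysyl hydroxylase gene, had 97 against 198, a ratio of 2.26 (1.76 to 2.91). All 3 had intervals above 1, while phy-3 and phy-4 were not listed. The RPKM of phy-2 was 0.389 times that of dpy-18 (wild type) and 0.564 times (mutant), a difference of 1.45-fold (0.880 to 2.41) whose interval held 1.

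These ratios stand within a difference between the libraries that spans several tissues, though not every marker. Of 38 markers of muscle, pharynx, intestine, hypodermis and neurons, 34 had reads and 25 reached 50 reads. Of these, 17 were at least 2-fold higher and 0 lower, beside 17.6% and 1.75% of all 5197 genes. tnt-4, mec-12, mec-17 and egl-3 reached 50 reads through the mutant library alone, and dim-1 through the wild-type library alone. Their summed level was 8967 CPM (wild type) and 18959 CPM (mutant), and their log2 ratios ran from -0.89 to 1.92 with a median of 1.25. The intestinal marker ges-1 and the neuronal marker rab-3 were not listed. Of 12 oogenic germline markers 10 had reads, all with log2 ratios between -1.01 and -0.73 and a summed level of 10143 against 5510 CPM. Of 10 sperm markers 9 had reads, and 7 reached 50 reads, each through the mutant library alone, so that a high ratio was a condition of passing. The 9 had a summed level of 19.02 against 283 CPM. The log2 ratios of cysl-1 and phy-2 lay on either side of the median of the body tissue markers, and those of rhy-1 and cysl-2 lay between the oogenic markers and 0. In libraries from whole worms, fewer cells of a type and less RNA per cell cannot be told apart, and the part of tissue makeup in the ratios of these genes was not tested.

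**Figure D4:**
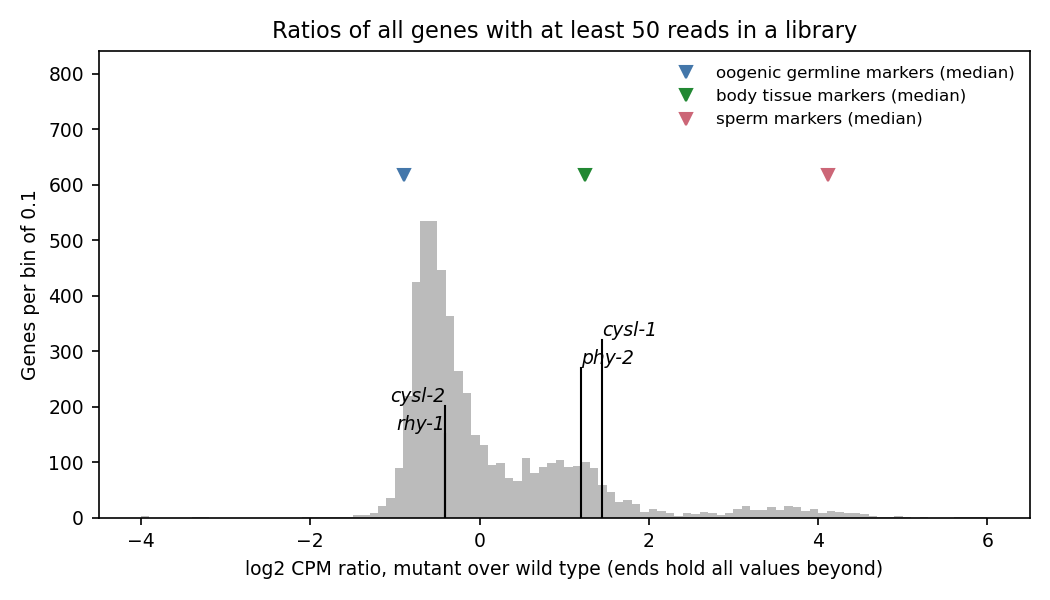
Number of genes per bin of 0.1 along the log2 CPM ratio (mutant over wild type) for the 5197 genes that reached 50 reads. Lines mark cysl-1, phy-2, rhy-1 and cysl-2, and triangles mark the medians of oogenic germline (-0.89), body tissue (1.25) and sperm markers (4.12).

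With the body tissue markers set to a median log2 ratio of 0, phy-2 stood at -0.055 and cysl-1 at 0.20, and neither was beyond 2-fold. Intervals on this scale are not given, so a turn of sign alone is not read as a difference. On that scale rhy-1 and cysl-2 were at least 2-fold lower, at -1.66 and -1.65, as were 69.7% of all 5197 genes. The median of all genes was then -1.58. The log2 ratios of hif-1, egl-9 and vhl-1, with few reads, turned from 0.51 to -0.74, from 0.99 to -0.26 and from 0.41 to -0.83. The 3.62-fold difference in the ratio of cysl-1 to cysl-2 has the same value under every scaling of the libraries.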

How the data were processed

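Per the labels' protocols, mRNA was selected on oligo(dT) beads and copied with random hexamers, and the libraries were sequenced on an Illumina HiSeq instrument. Per the file headers, the deposited counts are unique reads for each sequence ID and were not normalized. The authors also gave RPKM, which was matched from the counts with a largest relative error of 2.8e-08, and the percent of each length covered. Aligner, genome build and annotation were not given in the sources used here, and coordinates are left out. The headers' totals equal the sums of 5784560 and 5230459 counts.

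Of 9430 IDs, 9383 matched sequence names of the WBcel235 annotation (Ensembl), which was used for names, chromosomes and isoform models. The isoform letter was dropped and the counts of a gene's IDs were summed. Where 1 library lacked an ID, 0 reads were entered, an assumption that was not tested; a count of 0 allows 3 reads, or 0.519 CPM (wild type) and 0.574 CPM (mutant). A read length of 49 bases was taken from the covered length of the 1290 values of 1 read. A window of that length was called specific when its genomic positions occur in the coding sequence of 1 annotated isoform, and the bases covered were within the specific bases (tolerance 3 bases) for 70.4% of wild-type and 70.2% of mutant IDs of genes with several isoforms. No coding base of the 7 genes lies in an exon of another annotated gene, so the strand of the libraries, which is not stated, did not touch them. CPM, ratios and intervals were computed with Python 3.11.15 and scipy 1.17.1, log2 ratios with a prior of 0.5 reads in each library, and the interval script was checked on simulated counts. The rule for higher or lower genes asked for 50 reads in either library, a 2-fold difference and an interval without 1. Alternatives used TMM factors (edgeR 4.0.16), median-of-ratios factors (DESeq2 1.42.0), other totals, marker scaling, read minimums, isoform handling, prior and threshold. The 7 genes, the 5 pathway lists and the 7 marker lists were chosen with earlier results of these data known. All 7 genes are named, with every listed gene of the pathway lists, and values are given for those with at least 50 reads, up to 6 in a list by the size of the log2 ratio; values below that level were added after they were seen.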

Additional observations from a re-analysis of the deposited data

How the results depend on the processing

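No paired analysis was possible because each genotype has 1 library and the labels give no replicate numbers, and for the same reason no replicate could be left out. The median log2 ratio of all genes with 50 reads was -0.335 with library totals, -0.244 with TMM factors, -0.283 with median-of-ratios factors and -1.584 with the body tissue markers at 0. For the 5 genes with 1 isoform, choosing 1 isoform ID or using the deposited RPKM could not change the log2 ratio. The ratio intervals of hif-1 (0.582 to 3.66) and egl-9 (0.317 to 24.5) were wide, so values could move far and stay within. Of 56 alternative log2 values of the 7 genes, with these included, 51 stayed within the counting interval of the value reported. The other 5 came with the body tissue markers at a median of 0, where vhl-1 was -0.83, rhy-1 -1.66, cysl-1 0.20, cysl-2 -1.65 and phy-2 -0.055. The sign of phy-2, which lay close to equal levels, and of vhl-1, hif-1 (-0.74) and egl-9 (-0.26) turned there. That of egl-9 also turned with its isoform ID c alone (-0.59). The rule of most reads did not single out c (2 against 1 reads), since d (0 against 3) tied with it. The order of names decided, so this turn carries no weight. With that scaling 0 of the 7 genes were at least 2-fold higher and 2 lower, with a median of -0.85. Of the pathway genes 0 were higher and 6 lower (elb-1, swan-1, rbx-1, cul-2, elc-1 and mpst-1), with a median of -0.88. By the same rule 69.7% of all 5197 genes were lower on this scale and 5.83% higher. Of all calls 7.72% were then on the higher side, against 90.9% with library totals. With library totals 2 of 14 pathway genes (cth-2 and let-268) were at least 2-fold higher, beside 17.6% of all genes. The number was 3 with totals that leave out the most abundant genes (19.6% of all genes) and 3 with at least 10 reads (22.1%). It was 4 with no minimum of reads (18.3%) and 4 with all genes set to a median of 0 (23.9%, chosen after seeing the data). At a threshold of 1.5-fold 4 were higher (25%) and 3 lower (27.6%), and 47.5% of all calls were higher. The ratio of cysl-1 to cysl-2 is free of scaling by construction. Few reads were listed for hif-1, egl-9 and vhl-1, whose intervals held both 1 and 2. The parts of depth and of read placement among isoforms in the low numbers of hif-1 and egl-9 were not tested.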
